A study of Mus musculus with 7 samples.

Results

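The genes described here carry a cell through G2 phase and mitosis, and their RNA was followed across 7 expression arrays of mouse glioma cells that differed in the number of intact Ptprd alleles. The list names 45 genes, given by symbol for their role in mitosis by a rule that uses no measured value, though earlier results of these data were known when the list was made. Each gene was represented by the probe set, among those that name exactly 1 gene, with the highest mean over the 7 arrays. In this way 44 of the 45 had a value, out of 12393 genes named on the array. Ccnb1, which encodes cyclin B1, had no probe set that names it alone and is therefore without a value. All 44 passed the filter on dim genes on all 7 arrays, so that no member entered the tests through the group in which it was high.

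Entry into mitosis is driven by CDK1 bound to cyclin A or cyclin B, and polo-like and aurora kinases then build the spindle. The spindle checkpoint holds the cell until each chromosome is attached, the anaphase-promoting complex starts chromosome separation, and motor proteins and RhoA regulators divide the cell. Transcription of these genes is low in resting and G1 cells and peaks in G2 and mitosis, so the RNA of this module is widely used as a measure of how many cells of a sample are cycling. In a bulk sample, fewer cycling cells and less RNA per cycling cell cannot be told apart.

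The cells came from brains of mice of mixed C57/BL6 and FVB/N strain that all carried p16-/- and Nestin-tvA, which places the receptor of the avian RCAS virus under the Nestin promoter. Gliomas were started by cerebral injection of RCAS PDGFB GFP, a vector for platelet-derived growth factor B and green fluorescent protein, on postnatal day 1 to 3. Tumours were collected when symptoms appeared or at 12 weeks, dissociated with papain, and sorted for cells with GFP and without uptake of the dead-cell dye DAPI. The groups were Ptprd+/+p16-/- (wild type, 2 arrays), Ptprd+/-p16-/- (heterozygous, 2 arrays) and Ptprd-/-p16-/- (null, 3 arrays), and Ptprd encodes a receptor protein tyrosine phosphatase. Wild type here means wild type for Ptprd alone, since every group lacked p16 and received PDGFB. The labels describe the arrays of a group as biological replicates. They give neither the age at collection of each sample nor whether animals were pooled. Levels of Xist and Y-linked RNA, given below, differed between the arrays of each group, so these were not repeats of the same sample. The p-values weigh differences only against the spread of these arrays.

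Median log2 levels of the arrays lay between 6.62 and 6.71. Ptprd RNA was 10.86 and 10.89 (log2) in wild type, 9.42 and 9.57 in heterozygous and between 8.95 and 9.93 in null cells, so it set wild type apart from both deficient genotypes but did not set these apart from each other. Whether its probe set lies in the targeted part of the gene is not known here. All 12 measured markers of glioma and oligodendrocyte progenitors lay above the filter level on every array. Xist is transcribed from inactive X chromosomes. It was at 5.40 and 12.90 (log2) in wild type, 11.16 and 12.92 in heterozygous and 12.73, 5.14 and 12.60 in null cells. The Y-linked Eif2s3y was at 10.055 and 2.61 in wild type, 9.28 and 2.79 in heterozygous and 8.69, 9.80 and 2.81 in null cells. Xist and Y-linked genes were thus both well expressed in replicate 1 of the heterozygous and replicate 1 of the null group. The counts are given with and without these arrays. Of 22 measured markers of microglia and macrophages, 13 lay above the filter level on each wild-type array, 19 and 21 on the heterozygous arrays and 14 to 17 on the null arrays.

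The module was highest in the heterozygous cells, and within them in replicate 1. For each of the 44 members, heterozygous replicate 1 had the highest level of the 7 arrays, as it had for 20.0% of the 9243 genes tested. Heterozygous replicate 2 came second for 36 members. The lowest level was that of null replicate 3 for 37 members, against 10.8% of all genes tested, and that of null replicate 1 for 6. The remaining member, Mad2l1, was lowest in wild type replicate 2. From the lowest to the highest array the members spanned between 0.71 and 3.50 (log2), with a median of 2.71.

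**Figure D1:**
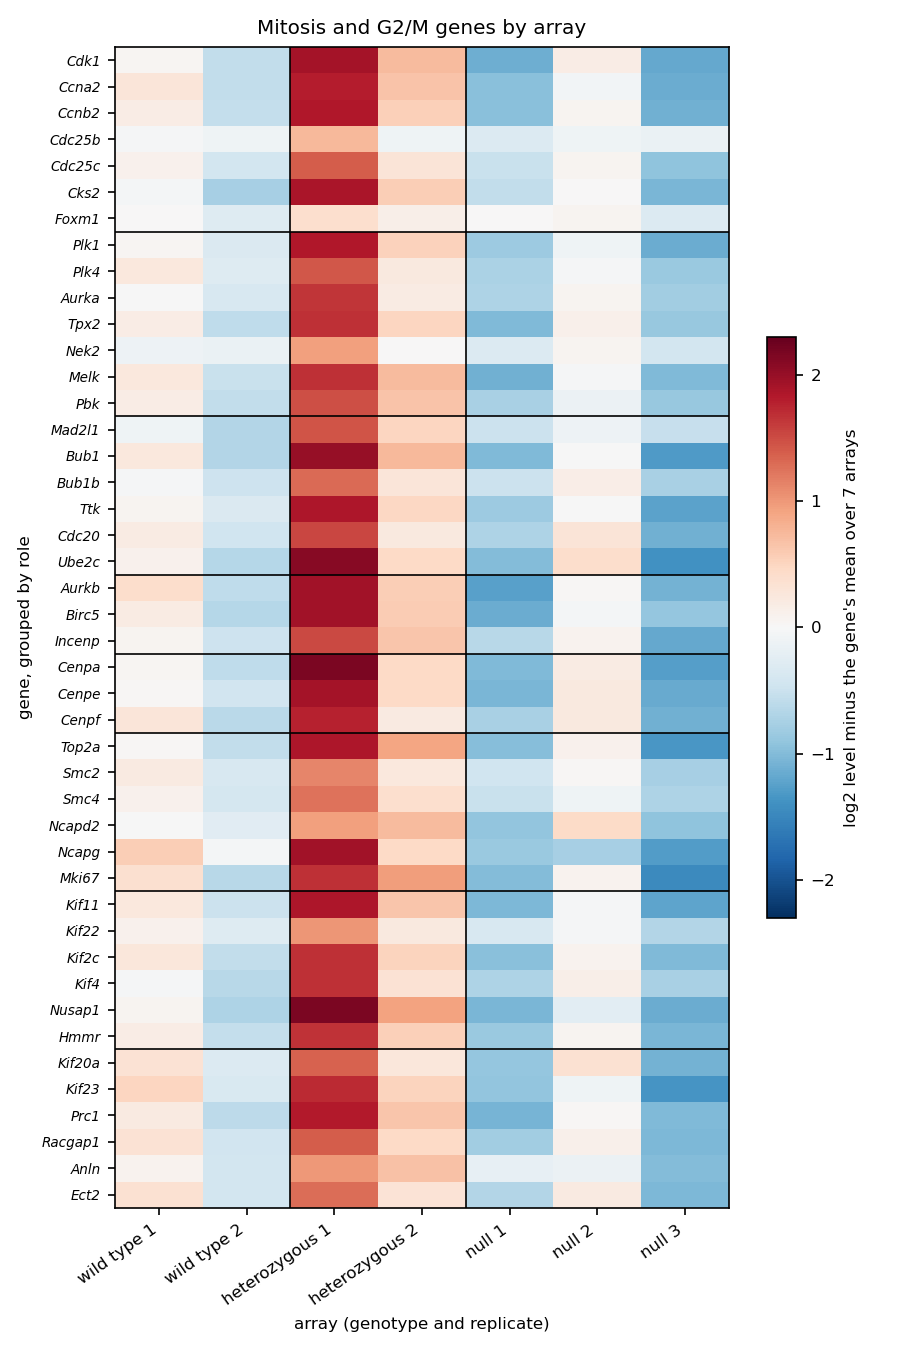
Level of each of the 44 members (rows, grouped by role) on each of the 7 arrays (columns), as log2 level minus that gene's mean over the arrays. Heterozygous replicate 1 is the highest array in 44 of 44 members, and null replicate 3 the lowest in 37.

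Arrays of 1 genotype also differed, and they did so for nearly all members together. Wild type replicate 1 was above wild type replicate 2 in 44 of 44 members, with a median gap of 0.63 (log2), while 47.0% of all genes tested were higher on the first. Heterozygous replicate 1 was above replicate 2 in 44 of 44 members by a median of 1.17, against 43.0% of all genes. Null replicate 2 was above null replicate 3 in 44 members, by a median of 1.08, and above null replicate 1 in 44, by a median of 0.90, against 44.8% and 52.3% of all genes. The gap within the heterozygous pair was therefore of the same order as the median difference between heterozygous and wild type given further on. Ordered by the mean of the members, the arrays of each genotype also followed the order of Eif2s3y given above. The part of sex in these gaps was not tested.

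The mean levels of wild-type and null arrays interleaved, and both heterozygous arrays lay above them. Averaged over the 44 members after each gene was centred on its own mean, the level was 0.15 and -0.47 (log2) on the wild-type arrays. The heterozygous arrays stood at 1.58 and 0.48, and the null arrays at -0.78, 0.04 and -0.99. Null replicate 2 was above wild type replicate 2 in 42 of 44 members, and wild type replicate 1 was above null replicate 2 in 29, with a median gap of 0.11, against 46.3% of all genes. Heterozygous replicate 2 was above wild type replicate 1 in 38 of 44, with a median gap of 0.37. Wild type replicate 1, null replicate 2 and heterozygous replicate 2 thus lay close together. Heterozygous replicate 1 lay above them, and wild type replicate 2 and null replicates 1 and 3 below.

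**Figure D2:**
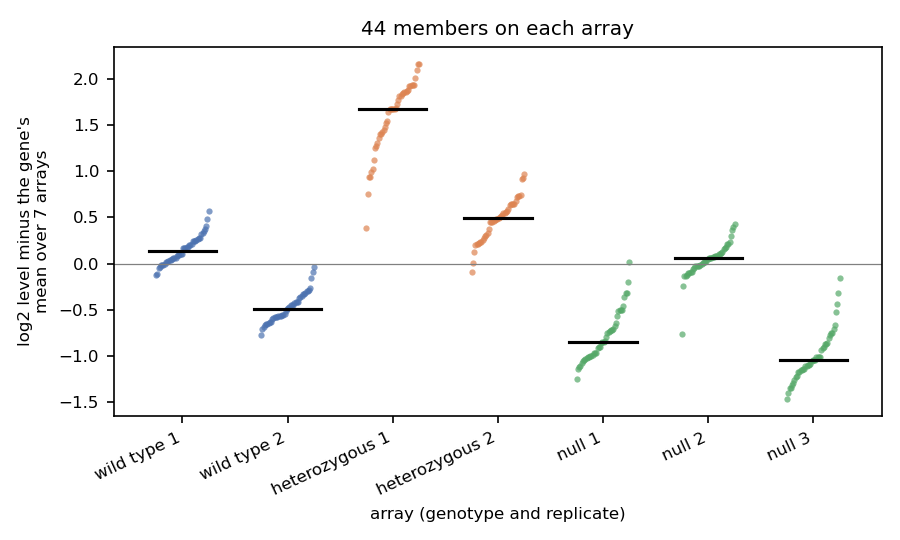
Log2 level minus the gene's mean over the 7 arrays, for the 44 members on each array, in which each point is 1 gene, sorted by value, and each bar is the median of the members on that array. The 2 heterozygous arrays lie apart from each other, and null replicate 2 lies near wild type replicate 1 while the other null arrays are the lowest.

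Variation within the module ran almost along a single line. Over the 44 members, the first principal component of the centred levels held 97.0% of the variance, against 58.4% over all genes tested. As a description over 7 arrays, which share genotype and sort, a member's levels correlated with the median profile of the other members at 0.87 to 1.00, with a median of 0.99, and 38 of 44 lay above 0.95. Foxm1 (0.87, in its brightest probe set) and Cdc25b (0.88) followed the others least. Their differences between heterozygous and wild type were the smallest, 0.40 and 0.39. Differences between genotypes made up a median of 68.2% of a member's sum of squares, against 52.5% for all genes, and the standard deviation within genotypes was 0.63 (log2, median of the members) against 0.15.

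Promoters of mitotic genes are known for the cell cycle homology region (CHR) and the CCAAT box. The CHR is read by the DREAM and MMB-FOXM1 complexes, and the CCAAT box is bound by NF-Y. Because the members moved together, their promoters were searched on both strands for CHR written as TTTGAA or TTCGAA, for CCAAT, and for the E2F motif of G1/S genes written as TTTGGCGC, TTTCCCGC, TTTGCCGC or TTTCGCGC. No motif contains another. RefSeq promoters of GRCm38.p6, 250 bases before to 50 after the start, were at hand for 36 of the 45 listed genes. The sequences shown cover 100 bases before to 20 after the start, on the gene's strand and 5′ to 3′, with CHR and CCAAT matches on either strand in capitals. Cdk1 and Ccnb2 are shown as the kinase and cyclin of mitotic entry, Bub1 and Top2a as members past the threshold in null against heterozygous cells, Kif11, Kif23 and Prc1 as spindle and midzone genes, and Mad2l1 as the member past the threshold in both comparisons, without a match.
Cdk1, chr10:69352893-69353012, minus strand: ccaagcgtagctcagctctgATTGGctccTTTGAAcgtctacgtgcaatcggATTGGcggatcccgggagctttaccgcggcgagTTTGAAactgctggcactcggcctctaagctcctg
Ccnb2, chr9:70421535-70421654, minus strand: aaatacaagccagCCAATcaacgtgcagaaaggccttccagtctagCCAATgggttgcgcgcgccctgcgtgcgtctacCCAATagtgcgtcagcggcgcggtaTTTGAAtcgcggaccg
Bub1, chr2:127831840-127831959, minus strand: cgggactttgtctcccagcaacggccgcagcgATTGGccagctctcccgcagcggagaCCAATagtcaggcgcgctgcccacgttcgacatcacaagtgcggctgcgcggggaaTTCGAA
Top2a, chr11:99024170-99024289, minus strand: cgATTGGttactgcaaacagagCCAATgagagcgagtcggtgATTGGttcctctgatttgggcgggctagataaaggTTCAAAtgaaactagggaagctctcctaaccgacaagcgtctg
Kif11, chr19:37376282-37376401, plus strand: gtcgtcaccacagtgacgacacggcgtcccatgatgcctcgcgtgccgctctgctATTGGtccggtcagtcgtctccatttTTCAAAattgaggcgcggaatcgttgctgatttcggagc
Kif23, chr9:61946780-61946899, minus strand: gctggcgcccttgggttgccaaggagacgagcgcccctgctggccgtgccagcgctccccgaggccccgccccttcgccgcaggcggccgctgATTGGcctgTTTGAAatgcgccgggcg
Prc1, chr7:80294351-80294470, plus strand: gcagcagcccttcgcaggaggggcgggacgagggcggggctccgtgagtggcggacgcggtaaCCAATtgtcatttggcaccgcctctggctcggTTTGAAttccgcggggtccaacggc
Mad2l1, chr6:66535121-66535240, plus strand: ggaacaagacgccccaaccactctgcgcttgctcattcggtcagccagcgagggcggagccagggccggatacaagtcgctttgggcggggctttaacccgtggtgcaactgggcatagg

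A CHR match lay in the promoters of 27 of the 36 members (75.0%), against 1202 of the 7495 tested genes with a promoter and 21.7% of all genes of the table. Among the same members, 29 (80.6%) had a CCAAT match, against 43.0% of tested and 41.1% of all genes, and 25 (69.4%) had both, against 7.89% and 9.65%. The E2F motif was found in 3 (8.33%), against 4.84% of tested genes. Counted per promoter, 19.2% of the 32851 promoters held a CHR match, 37.4% a CCAAT match and 2.26% an E2F match. Among G1/S and DNA replication genes, 13 of 57 (22.8%) held a CHR match, 35 (61.4%) a CCAAT match and 24 (42.1%) an E2F match. Other mitotic genes held CHR and CCAAT matches in 63.9% each, and cell cycle exit and repression genes held a CCAAT match in 12 of 16 (75.0%), so CCAAT matches were frequent in all of these lists. Birc5, Mad2l1, Melk, Nusap1 and Plk4 had no match to CHR or CCAAT in this window. These are matches of letters, and no binding was measured.

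**Figure D3:**
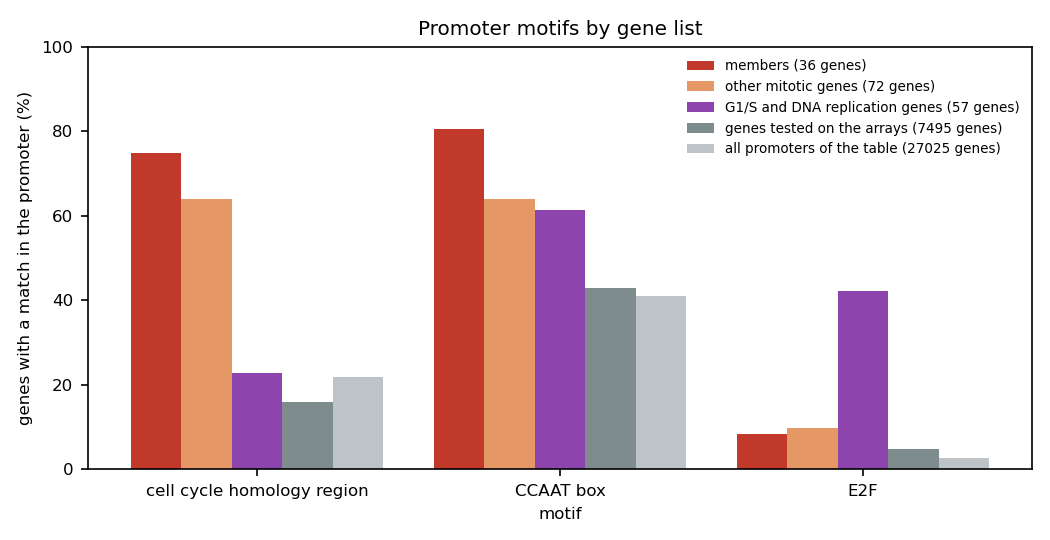
Share of genes whose promoter (250 bases before to 50 after the start) holds each motif, in percent, for the members, the other gene lists, the tested genes and all genes of the promoter table. CHR and CCAAT matches are more frequent among the members (75.0% and 80.6%) than among all genes of the table (21.7% and 41.1%), and E2F matches are most frequent among G1/S genes (42.1%).

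Null against heterozygous cells gave the most calls in the module. All 44 members had a lower mean in null cells, with a median log2 difference of -1.70 (3.25-fold), and in 40 of them the difference was larger than 1. Of these, 14 fell past an adjusted p of 0.05 in limma's moderated test, against 3.96% of all genes tested in that direction. They were Ccna2, Plk1, Melk, Pbk, Mad2l1, Bub1, Top2a, Smc4, Ncapg, Mki67, Kif11, Nusap1, Prc1 and Anln, with log2 differences from -2.35 in Nusap1 to -1.25 in Smc4. At an unadjusted p under 0.05 the count was 42, against 12.1% of all genes. In 39 members the null and heterozygous arrays did not overlap, against 17.9% of all genes, and the 5 that overlapped were Cdc25b, Nek2, Cdc20, Cenpf and Kif20a. The calls changed when single arrays were left out. Leaving out an array also lowers the residual degrees of freedom and changes the pooled spread. A lost call therefore need not mean dependence on that array, and wild-type arrays do not enter this difference. Without heterozygous replicate 1, null replicate 1 or null replicate 3 the fit called 0 members, without wild type replicate 1 or replicate 2 it called 1, without null replicate 2 it called 29, and without heterozygous replicate 2 it called 21. With heterozygous replicate 1 and null replicate 1 both left out, the arrays with Xist and Y-linked RNA, it called 0, and the median difference was -0.99.

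Heterozygous against wild-type cells gave differences nearly as large and 1 call. All 44 members were higher in heterozygous cells, by between 0.39 and 1.87 and by a median of 1.29 (log2, a 2.45-fold difference of means), while the median of all genes tested was -0.04. Mad2l1 alone rose past the threshold (limma adjusted p = 0.0482), where 4.20% of all genes rose. Without adjustment 27 members had a p under 0.05, against 12.7% of all genes. In 38 members both heterozygous arrays lay above both wild-type arrays, against 26.2% of all genes, and Cdc25b, Plk4, Cenpf, Ncapg, Kif20a and Ect2 overlapped. The standard error of the difference was 0.48 at the median of the members and 0.15 at the median of all genes. Heterozygous replicate 1 stood above the wild-type mean by a median of 1.82 and heterozygous replicate 2 by 0.67. Without heterozygous replicate 1 the median difference of the members was 0.67 and 0 members were called, and without heterozygous replicate 2 it was 1.82 and 7 were called. Leaving out wild type replicate 1, wild type replicate 2 or null replicate 1 gave 0 calls, and leaving out null replicate 2 gave 2. Leaving out null replicate 3 gave 1, which was Anln (limma adjusted p = 0.0412) and not Mad2l1. With heterozygous replicate 1 and null replicate 1 both left out, 0 were called and the median was 0.67.

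Null and wild-type cells differed little against that spread. The median difference of the members was -0.44 (log2), 42 of 44 were lower in null cells, and limma called 0 of them, as it called 0% of all genes tested in this comparison. Ncapg was the single member with an unadjusted p under 0.05 (0.0212, adjusted p = 0.882), where 2.39% of all genes were lower at that level, and the single one whose 3 null arrays all lay below both wild-type arrays, against 11.0% of all genes. The 95% interval of a member's difference reached 1.04 to either side at the median, so differences of 1.35-fold, the median in size here, could not be told from no change with these arrays. All 3 comparisons use the same 7 arrays and share groups. The test for any difference among the 3 genotypes called Nusap1 (adjusted p = 0.0490 in limma's F test), 1 of 44 members, against 5.65% of all genes. That call ended without any single array other than heterozygous replicate 2 or null replicate 2, and without null replicate 2 the count was 6.

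**Figure D4:**
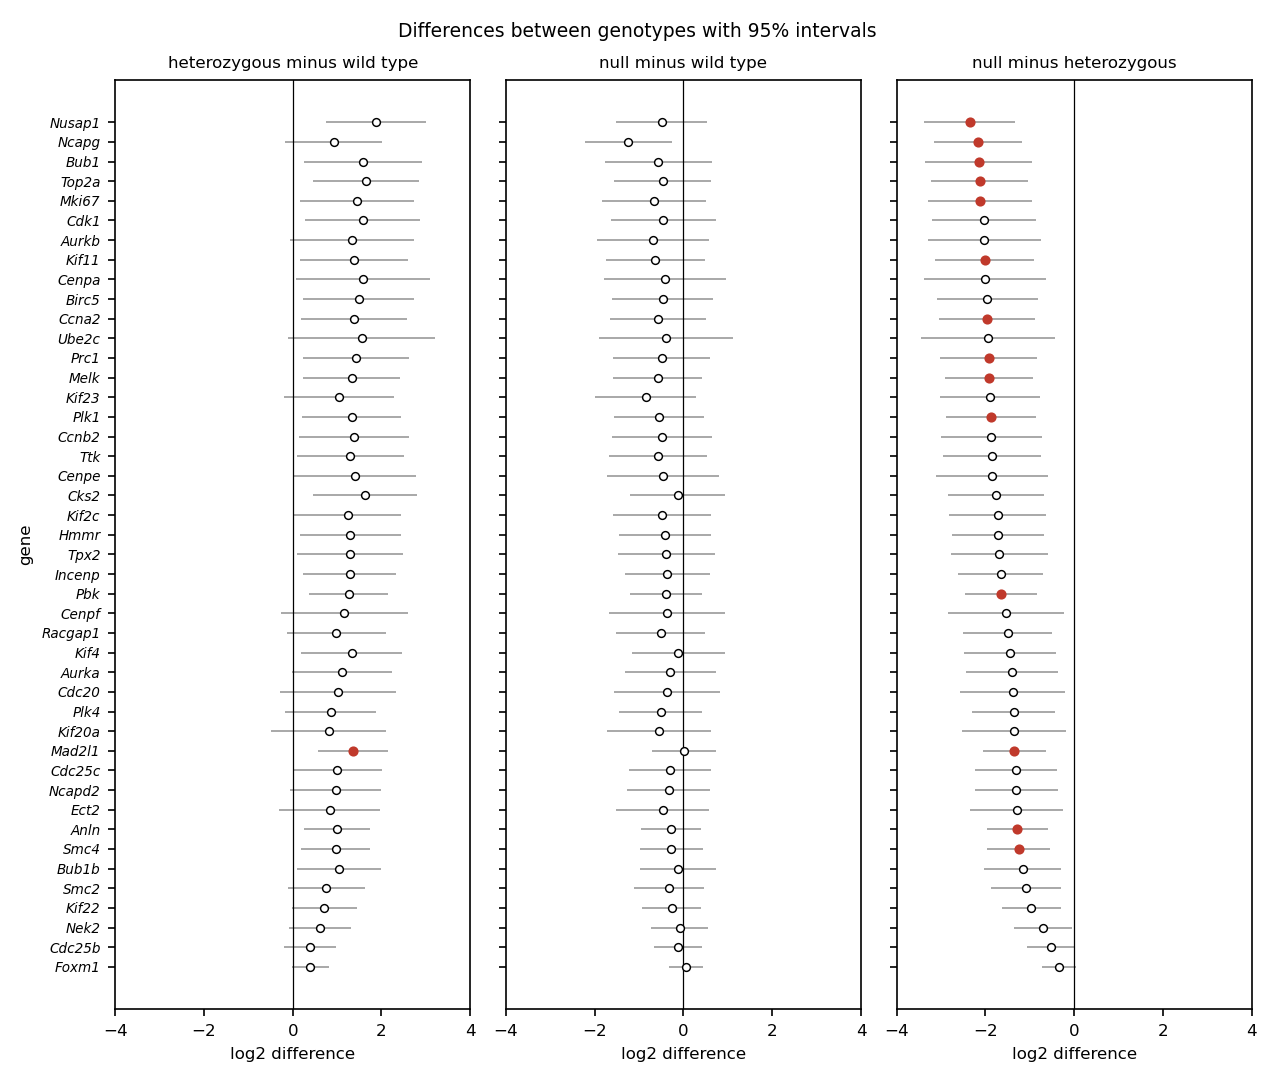
Log2 difference of each member between genotypes, with 95% intervals from limma, in the 3 pairwise comparisons, sorted by null minus heterozygous, with filled red points for an adjusted p under 0.05. All 44 points lie above 0 for heterozygous minus wild type and below 0 for null minus heterozygous, and the intervals of null minus wild type span 0 in all members but Ncapg.

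Among the genes of the CDK1 engine, Cdk1, the kinase itself, stood at 8.27 and 7.66 (log2) in wild type, 10.14 and 8.95 in heterozygous and 7.11, 8.39 and 7.05 in null cells. Both heterozygous arrays lay above the other 5, and null replicate 2 lay above both wild-type arrays. The mean was 2.98-fold higher in heterozygous than wild-type cells (log2 difference 1.58 ± 0.55, SE, limma adjusted p = 0.110), and null cells differed from heterozygous cells by -2.03 ± 0.50 (adjusted p = 0.0507), at the edge of the threshold. Ccna2, which encodes cyclin A2, stood at 9.45 and 8.60 in wild type, 10.99 and 9.82 in heterozygous and 8.21, 9.12 and 8.03 in null cells. It fell in null against heterozygous cells (log2 difference -1.95 ± 0.46, SE, limma adjusted p = 0.0456), with no overlap of the arrays. Cks2, a small subunit that binds CDK1, stood at 9.20 and 8.48 in wild type, 11.12 and 9.81 in heterozygous and 8.68, 9.25 and 8.19 in null cells. Its 1.63 ± 0.50 between heterozygous and wild type (limma adjusted p = 0.0799) was the highest of this role, and null and wild-type arrays overlapped.

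Ccnb2, which encodes cyclin B2, was 2.60-fold higher in heterozygous than wild-type cells (7.78 and 7.07 in wild type, 9.46 and 8.16 in heterozygous, 6.65, 7.67 and 6.51 in null cells), with a limma adjusted p of 0.135. Cdc25c, a phosphatase that activates CDK1, differed by 1.01 (log2) in the same direction. Its relative Cdc25b was at 7.37 in heterozygous replicate 1 and at 6.52 in heterozygous replicate 2, the latter within the range of the wild-type arrays. Foxm1, the transcription factor that drives G2/M genes, varied least in its brightest probe set, from 6.18 to 6.89 over the 7 arrays. Its 2 heterozygous arrays (6.89 and 6.63) were still the highest. Its log2 difference was 0.40 between heterozygous and wild type (limma adjusted p = 0.189). In other probe sets of Foxm1 that passed the filter it was 0.54 and 0.75, and the latter ran from 4.90 to 6.49. Null minus heterozygous was -0.34 in the brightest probe set and -0.53 and -1.06 in these.

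Of the mitotic kinases, Plk1, which encodes the polo-like kinase of mitotic entry, stood at 6.85 and 6.48 (log2) in wild type, 8.65 and 7.34 in heterozygous and 5.97, 6.72 and 5.67 in null cells, and fell in null against heterozygous cells (log2 difference -1.87 ± 0.43, SE, limma adjusted p = 0.0434). Melk, a kinase of proliferating progenitors, stood at 7.37 and 6.61 in wild type, 8.80 and 7.85 in heterozygous and 6.02, 7.10 and 6.11 in null cells, and fell in that comparison (-1.91 ± 0.42, adjusted p = 0.0404). Pbk, a mitotic kinase of the MAPKK family, stood at 10.18 and 9.43 in wild type, 11.48 and 10.65 in heterozygous and 9.25, 9.87 and 9.13 in null cells, and fell in that comparison (-1.65 ± 0.34, adjusted p = 0.0353). In these 3 genes both heterozygous arrays lay above all others, and wild-type and null arrays overlapped. Their means were 2.51-fold, 2.52-fold and 2.39-fold higher in heterozygous than wild-type cells, with limma adjusted p of 0.114, 0.110 and 0.0761.

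Aurka, the centrosome aurora kinase, and Tpx2, its activator on the spindle, differed between heterozygous and wild type by 1.11 and 1.30 (log2). Plk4, which starts centriole duplication, was at 8.84 in wild type replicate 1 and 8.82 in heterozygous replicate 2, so its groups overlapped. Nek2, a kinase of centrosome separation, spanned 5.48 to 6.86 over the arrays, with heterozygous replicate 1 at the top and heterozygous replicate 2 (5.93) below null replicate 2 (5.99). None of these 4 passed the threshold in any comparison.

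Of the spindle checkpoint genes, Mad2l1, which encodes the MAD2 inhibitor of the anaphase-promoting complex, stood at 8.83 and 8.26 (log2) in wild type, 10.38 and 9.43 in heterozygous and 8.44, 8.82 and 8.42 in null cells. Both heterozygous arrays lay above the other 5, and the null arrays lay between the wild-type ones. It rose 2.56-fold in heterozygous against wild type (1.36 ± 0.33, SE, limma adjusted p = 0.0482) and fell 2.54-fold in null against heterozygous cells (-1.34 ± 0.30, adjusted p = 0.0427). The first call ended without any single array other than heterozygous replicate 2, with adjusted p between 0.0316 and 0.243 over these 7 fits. Null and wild-type means differed by 0.01 (95% interval -0.71 to 0.73). Bub1, a checkpoint kinase at the kinetochore, stood at 8.08 and 7.17 in wild type, 9.84 and 8.58 in heterozygous and 6.81, 7.83 and 6.52 in null cells, and fell in null against heterozygous cells (log2 difference -2.15 ± 0.51, SE, limma adjusted p = 0.0466).

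The other genes of this role did not pass the threshold in any comparison. Bub1b, which encodes the checkpoint protein BUBR1, and Ttk, the MPS1 kinase, were 2.05-fold and 2.46-fold higher in heterozygous than wild-type cells. Cdc20, the activator of the anaphase-promoting complex, was at 9.40 in heterozygous replicate 2, 9.47 in null replicate 2 and 9.35 in wild type replicate 1, so 3 genotypes met at that level. Ube2c, the ubiquitin-conjugating enzyme of that complex, stood at 11.24 and 9.59 in the heterozygous pair and at 9.54 and 7.74 in null replicates 2 and 3, wide gaps within both genotypes.

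The chromosomal passenger complex couples aurora B to the centromere. Birc5, which encodes its subunit survivin, stood at 8.03 and 7.18 (log2) in wild type, 9.77 and 8.43 in heterozygous and 6.70, 7.79 and 6.94 in null cells. Incenp, its scaffold, stood at 8.72 and 8.18 in wild type, 10.18 and 9.30 in heterozygous and 8.02, 8.74 and 7.49 in null cells. For both, the heterozygous arrays lay above all others, and null against heterozygous reached -1.96 ± 0.48 (limma adjusted p = 0.0508) and -1.65 ± 0.40 (adjusted p = 0.0504). Aurkb, the kinase, differed by -2.02 in that comparison (adjusted p = 0.0606). The 3 subunits thus gave values just short of the threshold.

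At the centromere, Cenpa, the histone H3 variant that marks it, stood at 8.23 and 7.61 (log2) in wild type, 10.35 and 8.65 in heterozygous and 7.18, 8.37 and 6.92 in null cells. The heterozygous pair was 1.69 apart, as wide as the 1.58 ± 0.64 between the heterozygous and wild-type means (SE, limma adjusted p = 0.151). Cenpe, a kinetochore motor, differed by 1.40 between heterozygous and wild type, without overlap. Cenpf, a kinetochore protein, had heterozygous replicate 2 at 8.34, below wild type replicate 1 at 8.41.

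Among genes of chromosome structure, Top2a, which encodes the topoisomerase that untangles sister chromatids, stood at 9.64 and 9.05 (log2) in wild type, 11.48 and 10.53 in heterozygous and 8.64, 9.73 and 8.28 in null cells. It fell 4.36-fold in null against heterozygous cells (-2.12 ± 0.46, SE, limma adjusted p = 0.0392), and the 1.66 ± 0.51 of heterozygous over wild type did not pass (adjusted p = 0.0803). Mki67, the Ki-67 proliferation marker that coats mitotic chromosomes, stood at 10.15 and 9.14 in wild type, 11.45 and 10.74 in heterozygous and 8.78, 9.86 and 8.31 in null cells, and fell in that comparison (-2.11 ± 0.50, adjusted p = 0.0456). In both genes the heterozygous arrays stood above all others, and null replicate 2 lay between or above the wild-type arrays. Smc4, the ATPase core of condensin, stood at 9.99 and 9.48 in wild type, 11.14 and 10.27 in heterozygous and 9.39, 9.80 and 9.19 in null cells, and fell in that comparison (-1.25 ± 0.30, adjusted p = 0.0489).

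Ncapg, a subunit of condensin I, had its 3 null arrays below both wild-type arrays in its brightest probe set. It stood at 7.44 and 6.84 (log2) in wild type, 8.80 and 7.32 in heterozygous and 6.02, 6.11 and 5.58 in null cells. Null replicate 2, which was above wild type replicate 2 in 42 members, was here below both wild-type arrays, and heterozygous replicate 2 was below wild type replicate 1. It fell 4.47-fold in null against heterozygous cells (-2.16 ± 0.42, SE, limma adjusted p = 0.0300). In a second probe set of Ncapg, null replicate 2 (6.01) lay above wild type replicate 2 (5.44), and null minus wild type was -0.65, against -1.24 in the brightest one. Between heterozygous and wild type the second probe set differed by 1.48 and the brightest by 0.92. Ncapd2, another condensin I subunit, had heterozygous arrays at 8.41 and 8.20 and null replicate 2 at 7.90, above both wild-type arrays. Smc2, the partner of Smc4, differed by 0.76 between heterozygous and wild type.

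Among spindle motors and microtubule binders, Nusap1, a protein that bundles microtubules near chromosomes, gave the largest differences of the 44 members in heterozygous against wild type and in null against heterozygous cells. It stood at 8.11 and 7.34 (log2) in wild type, 10.22 and 8.98 in heterozygous and 7.01, 7.81 and 6.91 in null cells. It was 3.65-fold higher in heterozygous than wild-type cells (1.87 ± 0.48, SE, limma adjusted p = 0.0517) and fell 5.11-fold in null against heterozygous cells (-2.35 ± 0.43, adjusted p = 0.0271). Its lower heterozygous array lay above the highest wild-type array by 0.87. Kif11, the motor that pushes the spindle poles apart, stood at 7.82 and 7.09 in wild type, 9.44 and 8.22 in heterozygous and 6.55, 7.55 and 6.37 in null cells, and fell in that comparison (-2.01 ± 0.47, adjusted p = 0.0456).

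The remaining 4 of this role did not pass in any comparison. Kif2c, a microtubule depolymerase, Kif4, a chromosome-arm motor, and Hmmr, a spindle protein that also binds hyaluronan, were 2.36-fold, 2.52-fold and 2.46-fold higher in heterozygous than wild-type cells. Kif22, a chromosome motor, differed by 0.71 (log2) in its brightest probe set and by 1.12 and 1.36 in the other 2.

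Of the genes of cytokinesis, Prc1, which crosslinks microtubules of the central spindle, stood at 8.34 and 7.54 (log2) in wild type, 9.95 and 8.78 in heterozygous and 7.06, 8.16 and 7.13 in null cells, and fell in null against heterozygous cells (log2 difference -1.92 ± 0.46, SE, limma adjusted p = 0.0489). Anln, which encodes the contractile ring scaffold anillin, stood at 8.10 and 7.60 in wild type, 9.01 and 8.69 in heterozygous and 7.82, 7.89 and 7.01 in null cells, and fell in that comparison (-1.28 ± 0.29, adjusted p = 0.0426). The heterozygous arrays of Anln were 0.32 apart, a narrow gap for this module. Kif23, the motor of the centralspindlin complex, stood at 7.25 and 6.41 in wild type, 8.49 and 7.27 in heterozygous and 5.86, 6.66 and 5.42 in null cells. Heterozygous replicate 2 and wild type replicate 1 of Kif23 were thus almost level, and its null cells differed from heterozygous ones by -1.90 ± 0.48 (adjusted p = 0.0536). Racgap1, the partner of Kif23, was 1.98-fold higher in heterozygous than wild-type cells, and the groups of Ect2, the RhoA activator, and Kif20a, the midzone motor, overlapped.

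Other probe sets of the members gave the same direction where they were above the filter level. The 44 members had 78 probe sets, 21 genes having several. Of the 34 that were not the brightest, 27 passed the filter, and 27 of 27 were higher in heterozygous than wild-type and lower in null than heterozygous means, with a median of 1.07 (log2) in the first. The sizes differed, with 1.87 in the brightest and 0.92 in another probe set of Nusap1, 1.24 against 1.01 and 0.30 in Kif2c, and 1.17 against 0.35 in Cenpf.

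Cell cycle genes outside the module had smaller median differences in the same directions. Among 58 other mitotic genes tested, the median log2 difference was 0.93 between heterozygous and wild type and -1.15 between null and heterozygous. Limma called 2 in the first comparison and 18, all lower, in the second, where 3.96% of all genes fell. Psrc1, a spindle protein, rose by 2.28 ± 0.55 in heterozygous cells (SE, limma adjusted p = 0.0457), and Cit, the citron kinase of cytokinesis, fell (-0.67 ± 0.17, adjusted p = 0.0499), where 5.95% of all genes fell. Among 62 genes of G1/S and DNA replication the medians were 0.74 and -0.83. Here 6 rose in heterozygous cells, namely Fen1, Pold1, Gins1, Ccne1, Gmnn and Pole2, against 4.20% of all genes. In null against heterozygous cells 12 fell, against 3.96% of all genes. Fen1, the flap endonuclease of lagging-strand synthesis, stood at 8.92 and 8.68 in wild type, 9.85 and 9.58 in heterozygous and 9.11, 9.17 and 9.13 in null cells, and rose by 0.91 ± 0.14 (limma adjusted p = 0.0129). The standard deviation within genotypes was 0.32 at the median of the G1/S list and 0.63 in the mitotic members, and heterozygous replicate 1 was the highest array for 62 of 62 G1/S genes. In null against wild type 0 genes of either list were called by limma, in a comparison with 0% called and 5.14% at an unadjusted p under 0.05 over all genes.

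Markers of microglia and macrophages moved with genotype too. Of 20 tested, 15 rose in heterozygous against wild type (median 1.37, log2), against 4.20% of all genes. In null against heterozygous cells 12 fell, against 3.96% of all genes. In null against wild type 0 were called, as were 0% of all genes. The counts of 15 and 12 include Ptprc, Cd68 and Cd14, called in both of the first comparisons. These genes passed the filter only on the heterozygous arrays, where they were high. Their calls therefore carry no weight, and the counts are lower without them. These genes also enter the mean of the macrophage list used below. The summed level of all 22 measured markers of this list, as log2, was 10.45 and 10.03 in wild type, 11.58 and 11.90 in heterozygous and 10.21, 10.86 and 10.22 in null cells. Wild type replicate 1 and null replicate 2 were thus the higher arrays of their group in this list and in the mitotic members. Within the heterozygous pair the order was turned, since replicate 1 minus replicate 2 was -0.28 in the mean of the macrophage list and 1.10 in that of the members. Ptprc, which encodes the leukocyte antigen CD45, stood at 5.88 and 5.62 in heterozygous cells and between 4.32 and 4.58 on the other 5 arrays, below the filter level there. With the mean of the macrophage list as a covariate, limma called 0 members in each comparison, and the median of the members was -0.21 in heterozygous against wild type and -0.43 in null against heterozygous cells. Since both lists are high in the same 2 arrays, genotype and marker level cannot be told apart by this fit. Of the progenitor markers, 6 of 12 fell and 1 rose in heterozygous against wild-type cells, where 5.95% of all genes fell and 4.20% rose. Of 10 astrocyte markers, 2 rose (Gfap by 1.49 and Aldh1l1 by 1.46, log2) and 1 fell (S100b) in heterozygous against wild-type cells. In null against heterozygous cells 3 fell and 1 rose, where 3.96% of all genes fell. Aldh1l1, called in both, passed the filter only on the heterozygous arrays, where it was high, so its calls carry no weight. Of 7 neuron markers tested, Snap25 and Gad1 fell in the first comparison (-0.84 and -1.24) and rose in the second, where 462 of all 9243 genes tested rose. The part of these cell types in the result was not tested. Lymphocyte markers (3 of 11 tested), endothelial markers (8 of 13) and markers of myelinating oligodendrocytes (8 of 8) had 0 calls in the 3 comparisons.

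**Figure D5:**
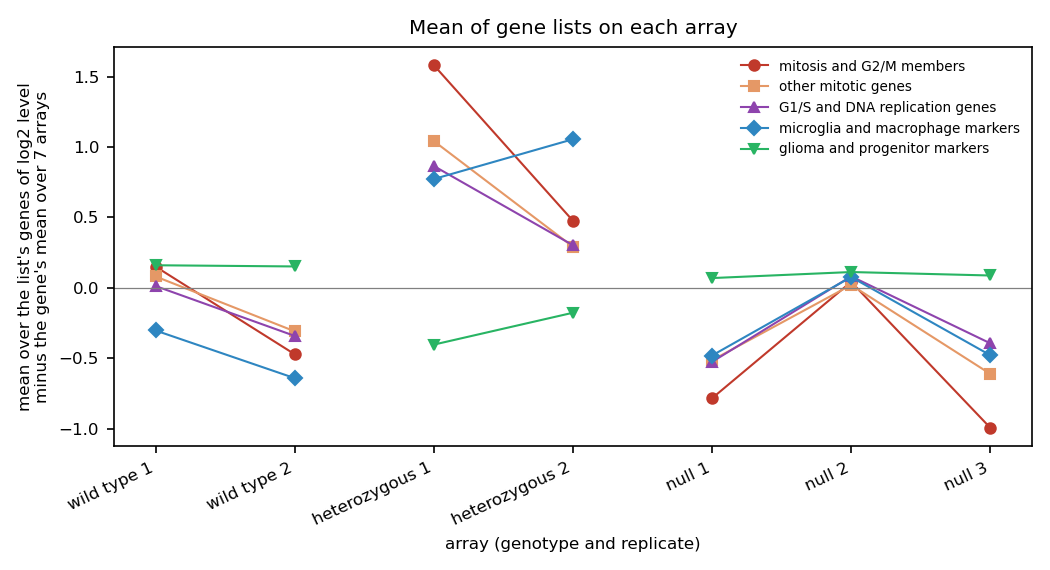
Mean centred log2 level of the mitotic members, other mitotic genes, G1/S genes and cell type markers on the 7 arrays. The members stand at 1.58 and 0.48 in the heterozygous arrays, where the macrophage markers stand at 0.77 and 1.05 and the progenitor markers at -0.40 and -0.18.

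The controls for RNA quality did not follow the order of the members. The difference between 3′ and 5′ probe sets of the Gapdh and actin controls, which grows with degraded RNA, was 0.83 and 0.61 (log2) in wild type, 0.75 and 0.90 in heterozygous and 0.91, 0.62 and 0.81 in null cells. Wild type replicate 2 and null replicate 2 had the lowest values, and the first was low and the second high among the members of its group. With this measure as a covariate, limma called 0 members in heterozygous against wild type and 5 in null against heterozygous cells.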

How the data were processed

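RNA of 7 samples of sorted glioma cells, 75 ng each, was labelled by a kit priming from the 3′ end and hybridised to Affymetrix mouse arrays. The authors deposited log2 expression values for 22690 probe sets, with RMA and Partek 6.6 listed, per the submitters' processing notes. RMA sets arrays to a common distribution, so a shift of all genes cannot be seen. The number of arrays limits the precision. Probe sets were named from the platform annotation (20380 name 1 gene), and the brightest per gene was kept. Genes that exceeded the 30th percentile of 2 or more arrays (9243, with 3150 removed) were fitted with limma 3.58.1 in R 4.3.3, with a mean per genotype, 4 residual degrees of freedom and Benjamini-Hochberg adjustment over all genes tested. The threshold was 0.05 and tests were two-sided. The fit was tested on simulated data. Members given in full are those past the threshold in any test, those of smallest p and largest difference of each role in heterozygous against wild type, and the 3 of smallest p in null against wild type. Members and gene lists were chosen with earlier results of these data known. Alternatives changed the filter, the probe set, the scaling, the moderation, the covariates and the arrays included.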

Additional observations from a re-analysis of the deposited data

How the results depend on the processing

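Of the 44 members, limma called 1 in heterozygous against wild type, 14 in null against heterozygous cells and 1 in the F test. With no filter on dim genes these counts were 0, 4 and 0, and with a stricter filter, the 50th percentile, 2, 22 and 2. The share of all genes called in each alternative is given neither here nor above, so the counts of alternatives cannot be set against it. Unmoderated tests gave 0, 0 and 0, and a trend in the moderation 2, 22 and 2. With only 2 groups in the fit the pairwise counts were 0 and 1, and the F test was not run. The 3′ minus 5′ covariate gave 0, 5 and 0. Without the 2 arrays with Xist and Y-linked transcripts the counts were 0, 0 and 0, and the medians 0.67 and -0.99. Centring on the 75th percentile gave 2 in heterozygous against wild type, and averaging each gene's probe sets 0 in the F test. Leaving out 1 array gave counts of 0 to 7, 0 to 29 and 0 to 6, and medians of 0.67 to 1.82 and -2.29 to -1.13; where 1 heterozygous or wild-type array was left, it was assumed to vary like the other groups. Null against wild type had 0 calls in every alternative, with medians of -0.79 to -0.09 when 1 array was left out.

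With the macrophage mean as covariate the counts were 0, 0 and 0 and the medians -0.21 and -0.43. Heterozygous against wild type then turned sign in Bub1 (-0.27), Ccna2 (-0.22), Cdk1 (-0.35), Cenpa (-0.036), Incenp (-0.23), Kif11 (-0.26), Kif23 (-0.54), Melk (-0.39), Mki67 (-1.10), Prc1 (-0.23) and Top2a (-0.33), and null against heterozygous in Mki67 (0.12). In the 20 alternatives, 389 of 400 values kept their direction in heterozygous against wild type (20 members) and 279 of 280 in null against heterozygous cells (14 members). These counts say little on robustness, since changing the filter or moderation, or fitting 2 groups alone, leaves a gene's difference of means unchanged. Most of these members were also named for their p or size of difference. In null against heterozygous cells 166 of the 280 values kept the direction but no longer passed the threshold. The causes were not tested.

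The titles do not say whether arrays with the same replicate number share anything. Deviations of arrays with the same number correlated between -0.41 and 0.11. With 2 arrays in a group the deviations mirror each other, so these values cannot show whether the numbers pair the arrays. With the number as replicate block the counts were 0, 0 and 0 and the median of null against wild type was -0.20. With 2 or 3 arrays a group, the 95% interval of a member's difference between heterozygous and wild type reached 1.14 to either side at the median.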

Other observations

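Genes known for holding cells out of the cycle were not uniformly low where the mitotic genes were high. Cdkn1a, which encodes the CDK inhibitor p21, stood at 8.46 and 7.80 (log2) in wild type, 10.35 and 10.57 in heterozygous and 7.71, 9.07 and 7.58 in null cells. It rose by 2.33 ± 0.49 in heterozygous against wild type (SE, limma adjusted p = 0.0321) and fell by 2.34 ± 0.44 in null against heterozygous cells (adjusted p = 0.0282). Of the heterozygous arrays, replicate 2 was the higher in Cdkn1a, whereas Cdk1 had replicate 1 above replicate 2 by 1.20. Cdkn1c, which encodes the CDK inhibitor p57, rose by 1.59 ± 0.35 (adjusted p = 0.0377), and Ccng1, a p53 target, by 0.95 ± 0.21 (adjusted p = 0.0365). Gas1, a gene named for its expression in growth arrest, fell by 0.55 ± 0.12 (adjusted p = 0.0386). Of the 18 such genes tested, 3 rose and 1 fell in heterozygous against wild type, with a median difference of 0.00, where 4.20% of all genes tested rose and 5.95% fell. In null against heterozygous cells 1 rose and 5 fell, where 462 of all 9243 genes tested rose and 3.96% fell. Whether the inhibitors and the mitotic genes were expressed in the same cells cannot be read from bulk RNA.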
